A study of Homo sapiens with 8 samples.

Results

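The genes described here are 7 that bear on antibody and cell therapy of neuroblastoma, out of 56303 genes in the count table. They were taken by name from that table. They hold the enzymes ST3GAL5, ST8SIA1 and B4GALNT1 that build the glycolipid GD2, the surface proteins CD276 and GPC2, and the cell adhesion molecules L1CAM and NCAM1. The libraries came from SK-N-BE(2), a long-established line of human neuroblastoma cells. In 1 arm the cells had a control hairpin (sh-NC), and in the other a hairpin that targets METTL14 (shMETTL14), the partner subunit of the methyltransferase that writes N6-methyladenosine (m6A) on messenger RNA. Each arm had 2 cultures, and each culture gave 1 input library of fragmented messenger RNA and 1 IP library of fragments pulled down with an m6A antibody, so that there were 8 libraries. The labels do not say whether cultures 1 and 2 of shMETTL14 carried the same hairpin or different ones, nor that the cultures were grown apart, so that the p-values below measure the spread between these cultures only. No agent other than the hairpins is named in the labels.

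GD2 is a sialic acid-bearing glycolipid that is abundant on most neuroblastomas and is the target of the antibodies dinutuximab and naxitamab. Its synthesis starts when UGCG puts glucose on ceramide and B4GALT5 or B4GALT6 adds galactose to give lactosylceramide. ST3GAL5 then adds a sialic acid to give GM3, ST8SIA1 adds another to give GD3, and B4GALNT1 adds N-acetylgalactosamine, which turns GD3 into GD2 and GM3 into GM2. CD276, also called B7-H3, is an immune checkpoint protein of the B7 family. GPC2 is a heparan sulfate proteoglycan of the developing nervous system that is held in the membrane by a lipid anchor. L1CAM and NCAM1 are adhesion molecules of the immunoglobulin superfamily on neurons and neuroblasts, and NCAM1 carries polysialic acid in the embryonic brain.

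Promoter sequence of RefSeq (GRCh38.p14) was at hand for 5 of the 7 genes, all but B4GALNT1 and NCAM1. Bases before an annotated transcription start are shown for the surface protein genes GPC2, L1CAM and CD276, so that their letters can be compared. The input level of GPC2 and L1CAM differed between the arms, and that of CD276 did not pass the test. Each is the longest stretch, within the 250 bases before an annotated start, that holds no exon of the count table. The GPC2 stretch lies outside the span of its gene in that table. Those of L1CAM and CD276 lie inside the spans of their genes (153861514 to 153909223 and 73683966 to 73714518), and so not before the whole gene. For CD276, the 170 bases between the stretch and the start are exonic in the count table. Capitals mark GC boxes (GGGCGG, or CCGCCC on the other strand) and CCAAT boxes (CCAAT, or ATTGG on the other strand), and neighbouring GC boxes can share a base.
GPC2, chr7:100177382-100177562, reverse strand, up to the start: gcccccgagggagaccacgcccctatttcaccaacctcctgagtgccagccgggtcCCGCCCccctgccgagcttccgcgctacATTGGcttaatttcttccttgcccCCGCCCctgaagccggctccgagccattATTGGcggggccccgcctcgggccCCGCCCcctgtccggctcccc
L1CAM, chrX:153876040-153876113, reverse strand, 25 bases before the nearer of its annotated starts: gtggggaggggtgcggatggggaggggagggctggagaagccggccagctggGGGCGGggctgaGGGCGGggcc
CD276, chr15:73684133-73684212, forward strand, 170 bases before the start: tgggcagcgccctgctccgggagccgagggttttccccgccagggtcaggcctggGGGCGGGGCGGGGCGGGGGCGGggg
The GPC2 stretch held 3 GC boxes and 2 CCAAT boxes, that of L1CAM 2 GC boxes and that of CD276 4 GC boxes. A GC box was in 42.6% and a CCAAT box in 32% of all 35116 promoter entries over their 250 bases before the start. The stretches are shorter, at 181 bases for GPC2, 74 for L1CAM and 80 for CD276. Their box counts are thus not on the same footing as these shares or as each other. The genes that rose and the gene that did not both held GC boxes, and these letters say nothing of which factors bind there.

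Total counts ran from 32027379 to 47205265 per library. Of the counts between 1 and 20, from 79.67% to 81.31% in each library were even numbers, so that both mates of a read pair may have been counted, which would make counting error larger than the counts alone give. Levels are given as CPM, read counts set to a common library size by way of edgeR's TMM factors, and, where genes are set against each other, as CPM per kb of exon. The label of the cells was checked first. All 8 adrenergic neuroblastoma markers had a mean above 1 CPM in the inputs of both arms, with a summed level of 5794 to 6030 CPM in sh-NC and 6007 to 6110 CPM in shMETTL14, most of it from MYCN (mean 4520 CPM in sh-NC). The 3 leukocyte markers had means under 1 CPM, and CD3E had no count in the sh-NC inputs. The 5 fibroblast markers summed to 396.7 to 416.2 CPM in sh-NC and 395.1 to 396.7 CPM in shMETTL14, the 4 Schwann cell markers to 5.593 to 6.129 and 5.08 to 5.439 CPM, and the 2 epithelial markers to 5.622 to 5.753 and 5.18 to 5.835 CPM. The sums hide markers that moved, where 11.7% of all 22245 genes tested were called higher and 12.3% lower. Of the adrenergic markers 5 of 8 rose in the shMETTL14 inputs, TH, which makes the precursor of dopamine, to 2.045 times (adjusted p = 7.94e-13), DBH, which makes noradrenaline, to 1.789 times (adjusted p = 0.000868), and the transcription factors ISL1, GATA3 and HAND2 to 1.368, 1.218 and 1.099 times the sh-NC level. Of the fibroblast markers DCN rose to 2.506 times (adjusted p = 4.92e-13) and COL3A1 to 1.103 times, and COL1A1 and PDGFRB fell to 0.6296 (adjusted p = 3.88e-10) and 0.8306 times the sh-NC level. Their part in the results below was not tested. METTL14 itself was lower in both knockdown cultures, at 14.34 and 15.31 CPM of input against 51.59 and 50.85 CPM in sh-NC. On the log2 scale it fell by 1.79 (standard error 0.0663), with an adjusted p of 1.28e-15. Adjusted p-values here and below come from the quasi-likelihood test of edgeR after Benjamini-Hochberg correction over all genes.

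The adhesion molecules were the most abundant of the 7 genes and the GD3 synthase ST8SIA1 was the least. In sh-NC inputs NCAM1 stood at 42.5 ± 1.815 CPM per kb (SD, n = 2 cultures), L1CAM at 30.13 ± 0.4423, CD276 at 24.55 ± 0.3744, B4GALNT1 at 6.574 ± 0.04647, GPC2 at 3.187 ± 0.3205, ST3GAL5 at 1.849 ± 0.1025 and ST8SIA1 at 0.02102 ± 0.00697. In shMETTL14 inputs the same order was found, from NCAM1 at 41.3 ± 0.7948 CPM per kb down to ST8SIA1 at 0.02826 ± 0.01797. Neighbours in this order never overlapped between the cultures of an arm, in either arm. NCAM1, L1CAM and CD276 were above 95.1%, 92.7% and 90.8% of the 22245 genes tested in level per length in sh-NC, B4GALNT1 above 68.1%, GPC2 above 51.5%, ST3GAL5 above 40.4% and ST8SIA1 above 0.1%. The ratio of levels per length of L1CAM to CD276 was 1.227 to 1.228 in sh-NC and 1.573 to 1.624 in shMETTL14. That of NCAM1 to L1CAM was 1.354 to 1.468 in sh-NC and 1.072 to 1.114 in shMETTL14, so that the closest pair of neighbours differed between the arms.

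**Figure D1:**
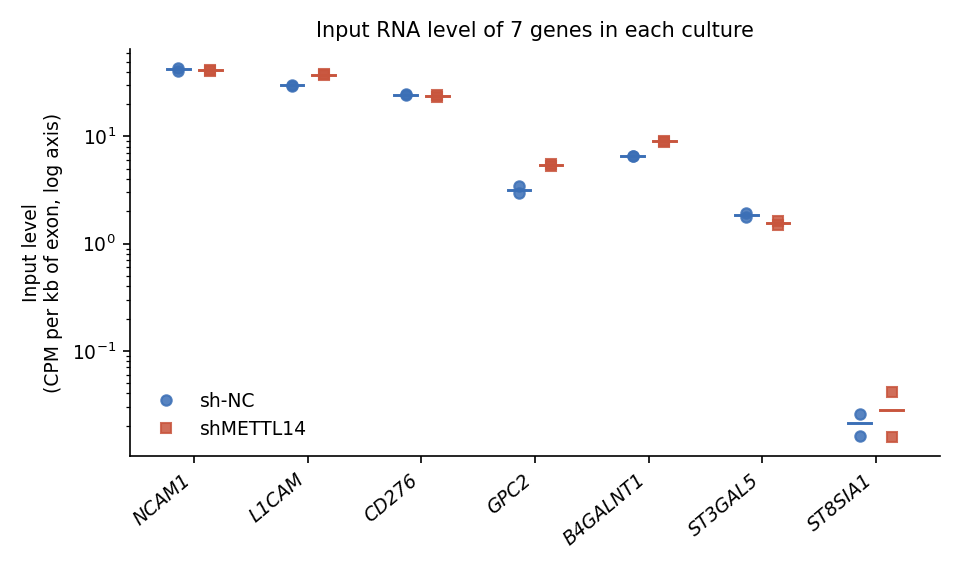
Input RNA level of the 7 genes in CPM per kb of exon, on a log axis, for the 2 sh-NC (circles) and the 2 shMETTL14 cultures (squares), with bars at the means. NCAM1 is highest at 42.5 and ST8SIA1 lowest at 0.02102 in sh-NC, and only for B4GALNT1, GPC2 and L1CAM did the difference between the arms pass the test.

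Input levels of B4GALNT1, GPC2 and L1CAM rose in shMETTL14 cells, to 1.372, 1.699 and 1.254 times the sh-NC level, and the other 4 genes did not pass the test. Thus 3 of 7 genes were higher, against 11.7% of the 22245 genes tested, and 0 of 7 were lower, against 12.3%. By edgeR at an unadjusted p-value under 0.05 1 gene, ST3GAL5, was lower, and DESeq2 also called 3 higher and 0 lower after adjustment. The median log2 fold change of the 7 genes was 0.327, against 0.002 for all genes tested. The 7 genes were chosen with earlier results of these data known, so that these contrasts with all genes are not independent of the data. The adrenergic markers TH, DBH, ISL1, GATA3 and HAND2 and the fibroblast marker DCN rose in the same libraries, as given above. Here as below, a higher level may be more cells with the RNA or more RNA in each cell, and bulk libraries cannot tell these apart.

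Of the GD2 enzymes, B4GALNT1, which makes GD2 out of GD3, was the one that rose. Its input level in sh-NC was 52.35 and 52.87 CPM, against 71.1 and 73.27 CPM in shMETTL14, so that both knockdown cultures lay above both controls. On the log2 scale it rose by 0.46, with a standard error of 0.0486 and an adjusted p of 1.24e-07. The gene lies on chromosome 12 from 57623410 to 57633355 (GRCh38) on the reverse strand, and 2136 of its 8003 exonic bases, 26.69%, are also exons of SLC26A10 on the forward strand. The strand setting of the authors' counting is not given in the sources used here, so that reads of both genes cannot be told apart. SLC26A10 had 62.63% as many counts as B4GALNT1 over the 8 libraries and was itself higher in the shMETTL14 inputs (log2 fold change 0.56, adjusted p = 1.61e-07). With every SLC26A10 count taken away from B4GALNT1, a setting chosen after seeing the data, B4GALNT1 was still higher (log2 fold change 0.31, adjusted p = 0.00178).

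ST3GAL5, which makes GM3, the precursor of the a- and b-series gangliosides, was at 10.66 and 9.858 CPM in sh-NC and at 8.208 and 9.008 CPM in shMETTL14. The cultures of the arms did not overlap, but the difference did not pass the test (log2 fold change -0.25, 95% interval -0.48 to -0.03, unadjusted p = 0.0304, adjusted p = 0.102 in edgeR). ST3GAL5 lies on chromosome 2 from 85839144 to 85889014 and shares no exonic base with another gene of the table. ST8SIA1, the GD3 synthase without which GD2 is not made, was close to the limit of what these libraries can count. Its inputs held 8 and 13 counts in sh-NC against 24 and 9 in shMETTL14. Its IPs held 20 and 10 counts in sh-NC against 26 and 17 in shMETTL14. These are 0.233 and 0.3758 CPM against 0.5933 and 0.2252 CPM in the inputs, and the arms overlap. The log2 fold change of 0.42 had a 95% interval from -0.77 to 1.62 (adjusted p = 0.674), so that a difference of either sign was not detectable at this depth. The annotation of ST8SIA1 spans chromosome 12 from 22063773 to 22437041 and counts 14483 exonic bases, the longest of the 7 genes.

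Set against each other per length, the 3 enzymes were far from level. B4GALNT1 was at 254.6 and 406.5 times the ST8SIA1 level in sh-NC, and at 216.9 and 588.7 times in shMETTL14. ST3GAL5 was at 68.48 and 119.4 times the ST8SIA1 level in sh-NC, and at 36.1 and 104.4 times in shMETTL14. Between the abundant pair, B4GALNT1 was at 3.405 to 3.718 times the ST3GAL5 level in sh-NC and at 5.641 to 6.007 times in shMETTL14. All these ratios are between RNA levels and do not measure enzyme or GD2. They divide by all annotated exonic bases, 14483 for ST8SIA1, which may not all be transcribed in these cells. The B4GALNT1 counts in them may hold reads of SLC26A10.

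UGCG, B4GALT5 and B4GALT6, which act upstream of the GD2 enzymes, fell. Among the other genes of ganglioside synthesis, 10 of 11 were tested in the inputs, of which 4 fell and 1 rose, beside 12.3% lower and 11.7% higher among all genes. Their median log2 fold change was -0.11, against 0.002 for all genes. UGCG, the first enzyme of the route, was at 13.9 and 12.66 CPM in sh-NC and at 7.293 and 7.907 CPM in shMETTL14 (log2 fold change -0.80, standard error 0.107, adjusted p = 3.38e-06). B4GALT6, a lactosylceramide synthase, went from 16.92 and 15.78 CPM to 9.073 and 7.782 CPM (log2 fold change -0.96, adjusted p = 1.23e-07). B4GALT5, the more abundant enzyme of the same step, went from 122.3 and 128.2 CPM to 85.66 and 80.05 CPM (log2 fold change -0.60, adjusted p = 4.16e-10). For each of these 3 genes the knockdown cultures lay below both controls, and each change passed the test under all the alternatives run. ST6GALNAC3, which adds sialic acid to the galactosamine of sialylated chains, fell by 0.44 on the log2 scale (adjusted p = 0.0012), and ST6GALNAC4 of the same family rose by 0.46 (adjusted p = 0.00283). Both calls were lost without shMETTL14 culture 2 (log2 fold change -0.47 and 0.30). That of ST6GALNAC4 was also lost without sh-NC culture 1 and under an alternative that kept all cultures. B3GALT4, which extends GM2 and GD2 towards the brain gangliosides, stood at 2.301 and 2.717 CPM in sh-NC and at 2.176 and 2.227 CPM in shMETTL14 (log2 fold change -0.19, 95% interval -0.62 to 0.24). ST8SIA5, which makes more highly sialylated gangliosides, had at most 8 counts in any library and was not tested.

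**Figure D2:**
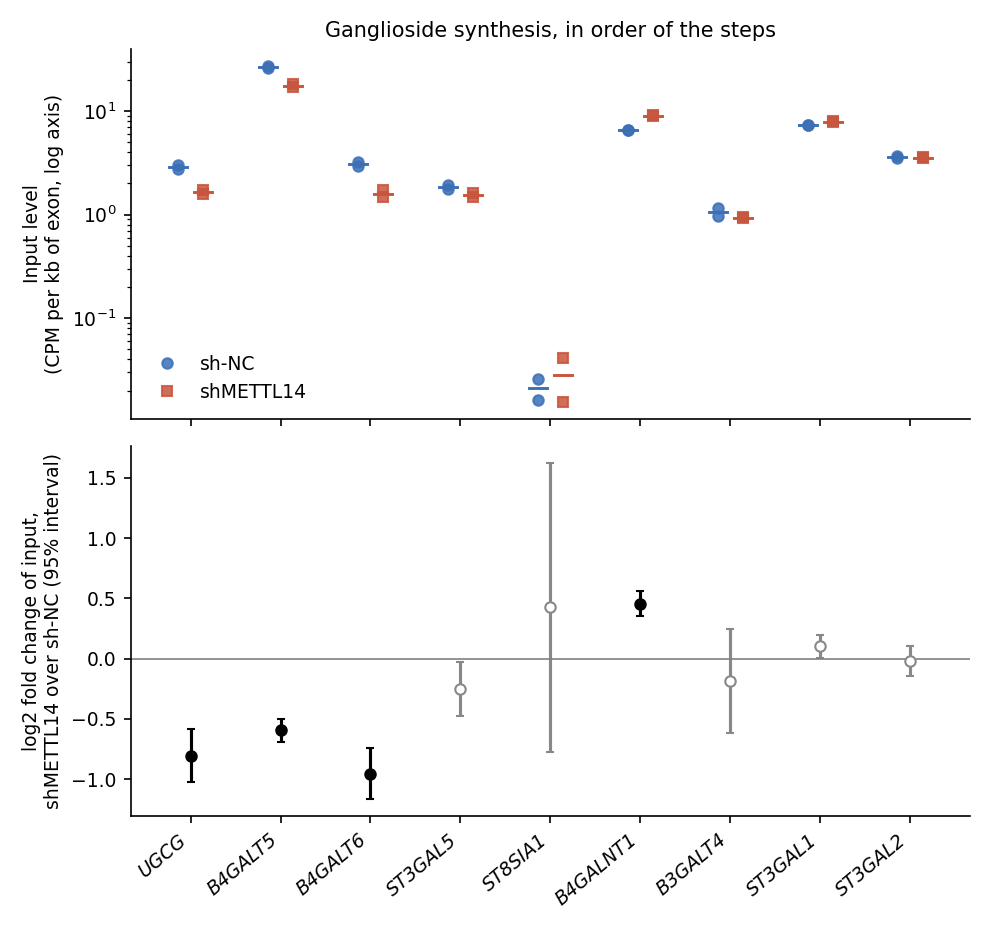
Genes of ganglioside synthesis in the rough order of their steps, where neighbours can share a step, as B4GALT5 and B4GALT6 do. The upper panel gives input levels in CPM per kb of exon on a log axis for each culture (circles sh-NC, squares shMETTL14, bars at the means), and the lower panel the log2 fold change with its 95% interval, filled where the adjusted p-value is under 0.05. UGCG, B4GALT5 and B4GALT6 lie below 0 and B4GALNT1 above it at 0.46, and ST8SIA1 has the lowest level and the widest interval.

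Genes that supply sialic acid and those that break gangliosides down moved in both directions, with 2 of 5 and 2 of 10 higher and 1 of 5 and 2 of 10 lower, beside 11.7% and 12.3% of all genes. Their median log2 fold changes were 0.08 and 0.01. Of the 5 supply genes, NANS, which makes sialic acid phosphate, rose (log2 fold change 0.26, adjusted p = 5.36e-05), as did SLC35A1, the Golgi carrier of the activated sugar (0.44, adjusted p = 0.0226), and NANP, the phosphatase between them, fell by 0.47 (adjusted p = 0.00206). Exons of SLC35A1 overlap another gene over 55.47% of their bases. Of the 10 breakdown genes, GM2A, the activator protein for GM2 breakdown, rose (0.35, adjusted p = 0.0131), as did the sialidase NEU1 (0.22, adjusted p = 0.0332). GALC, which removes galactose from galactosylceramide, fell by 0.51 (adjusted p = 0.000576). Of the breakdown genes, 6 did not pass the test. With all cultures kept, the calls of SLC35A1, NANP, GM2A and NEU1 were lost under some of the alternatives run. Without shMETTL14 culture 2, NANS, SLC35A1, NANP, GM2A, NEU1 and GALC lost their calls, with adjusted p-values from 0.0551 (NANS) to 0.268 (NEU1). SLC35A1 and NEU1 also lost their calls when any of the other cultures was left out (adjusted p = 0.0735 to 0.136), and GM2A without sh-NC culture 2 (0.0583) or shMETTL14 culture 1 (0.0548).

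GPC2 had the largest change of the 7 genes. It was at 11.33 and 13.07 CPM in the sh-NC inputs and at 21.11 and 20.34 CPM in the shMETTL14 inputs, with both knockdown cultures above both controls (log2 fold change 0.76, standard error 0.0885, adjusted p = 4.59e-07). Its log2 fold change was above that of 96.6% of all genes tested. GPC2 lies on chromosome 7 from 100169606 to 100177372, on the reverse strand, and shares no exonic base with another gene. Of the other glypicans, GPC6 fell by 0.27 on the log2 scale (adjusted p = 0.0409). This call was lost with DESeq2 (adjusted p = 0.176) and in edgeR without a filter (adjusted p = 0.128). It was also lost with any culture left out (log2 fold change -0.31 to -0.24). GPC1 had a log2 fold change of -0.08 (adjusted p = 0.414), and GPC3, GPC4 and GPC5 did not pass the test either, with standard errors of 0.378, 0.554 and 0.702.

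L1CAM was at 221.3 and 226 CPM in sh-NC and at 282.2 and 278.9 CPM in shMETTL14 inputs. The arms did not overlap, and on the log2 scale L1CAM rose by 0.33, with a standard error of 0.0344 (adjusted p = 1.04e-07). Its 7423 exonic bases on chromosome X, from 153861514 to 153909223, share 459 bases with ARHGAP4 and LCA10. Of its relatives, NFASC, a neuronal adhesion molecule that gathers channels at the node of Ranvier, rose as well (0.36, adjusted p = 0.000384, but 0.0642 without shMETTL14 culture 2), while NRCAM had a log2 fold change of -0.06 (95% interval -0.14 to 0.02). CHL1 had at most 4 counts in any library and was not tested. ADAM10 and ADAM17, proteases that shed L1CAM and other proteins of the surface, had log2 fold changes of -0.02 (adjusted p = 0.776) and -0.14 (adjusted p = 0.0563).

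CD276 and NCAM1 were close to level between the arms. CD276 (chromosome 15, 73683966 to 73714518, no overlap with another gene) was at 134.6 and 137.5 CPM in sh-NC and at 134 and 128.2 CPM in shMETTL14 inputs, a log2 fold change of -0.05 with a 95% interval from -0.14 to 0.03 (adjusted p = 0.379). NCAM1 (chromosome 11, 112961247 to 113278436) was at 557.6 and 525 CPM in sh-NC and at 518.9 and 533.2 CPM in shMETTL14 inputs. The cultures of the arms overlapped, with a log2 fold change of -0.04 and a 95% interval from -0.11 to 0.03 (adjusted p = 0.434). Changes beyond these bounds lie outside the 95% intervals. Antisense NCAM1-AS1 and RP11-629G13.1 share 703 of the 12737 exonic bases of NCAM1.

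The enzyme that puts polysialic acid on NCAM1 in the embryo changed more than NCAM1. ST8SIA2 was at 20.04 and 22.35 CPM in sh-NC and at 41.81 and 41.49 CPM in shMETTL14 inputs, which is 1.965 times the sh-NC level (log2 fold change 0.97, standard error 0.0673, adjusted p = 1.06e-10). ST8SIA4, the other polysialyltransferase, stood at 2.622 and 4.307 CPM in sh-NC and at 3.708 and 3.228 CPM in shMETTL14, where the arms overlap (log2 fold change 0.00, 95% interval -0.41 to 0.42). Of the B7 relatives of CD276, 5 were too scarce to test. VTCN1, HHLA2, VSIR, CD80 and CD86 had between 0 and 6 counts in every library, and CD274 (PD-L1) had a log2 fold change of -0.32 (adjusted p = 0.315). PDCD1LG2 passed the test downwards on 18 and 12 counts in sh-NC and 7 and 2 in shMETTL14 inputs (adjusted p = 0.0378), a call that was lost under 7 of 10 alternatives. NCR3LG1, also called B7-H6, a ligand of the natural killer cell receptor NKp30, fell from 57.53 and 53.63 CPM to 44.08 and 44.97 CPM (log2 fold change -0.32, adjusted p = 8.37e-05). Of the 22 relatives and modifiers of the surface proteins in all, 16 were tested, 2 rose and 3 fell, beside 11.7% and 12.3% of all genes, and the median log2 fold change was -0.07, against 0.002. On so few genes these counts lie near those shares.

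Among 8 other surface proteins that are followed as neuroblastoma targets, SLC6A2, the noradrenaline transporter that takes up MIBG, rose from 23.42 and 25.3 CPM to 41.88 and 44.19 CPM (log2 fold change 0.82, adjusted p = 9.27e-10). DLK1, a membrane-bound Notch ligand relative, fell by 0.19 on the log2 scale (adjusted p = 0.00478), and CD47, which signals against phagocytosis, fell by 0.25 (adjusted p = 0.0011). In edgeR without a filter, neither passed the test (adjusted p = 0.152 and 0.0961). DLK1 did not pass without shMETTL14 culture 2 (adjusted p = 0.202), nor CD47 without shMETTL14 culture 1 or 2 (0.0561 and 0.0988). The receptor kinase ALK had a log2 fold change of -0.01 with a 95% interval from -0.22 to 0.19. Of the 8 targets 1 rose and 2 fell, with a median log2 fold change of 0.07. Over all 56 listed genes other than the 7, 49 were tested, of which 8 rose and 12 fell, beside 11.7% and 12.3% of all genes. Without shMETTL14 culture 2 these counts were 2 and 5. Of these 20 called genes, 8 share between 2.02% and 55.47% of their exonic bases with another gene, and how far reads of the other gene enter their change was not tested.

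**Figure D3:**
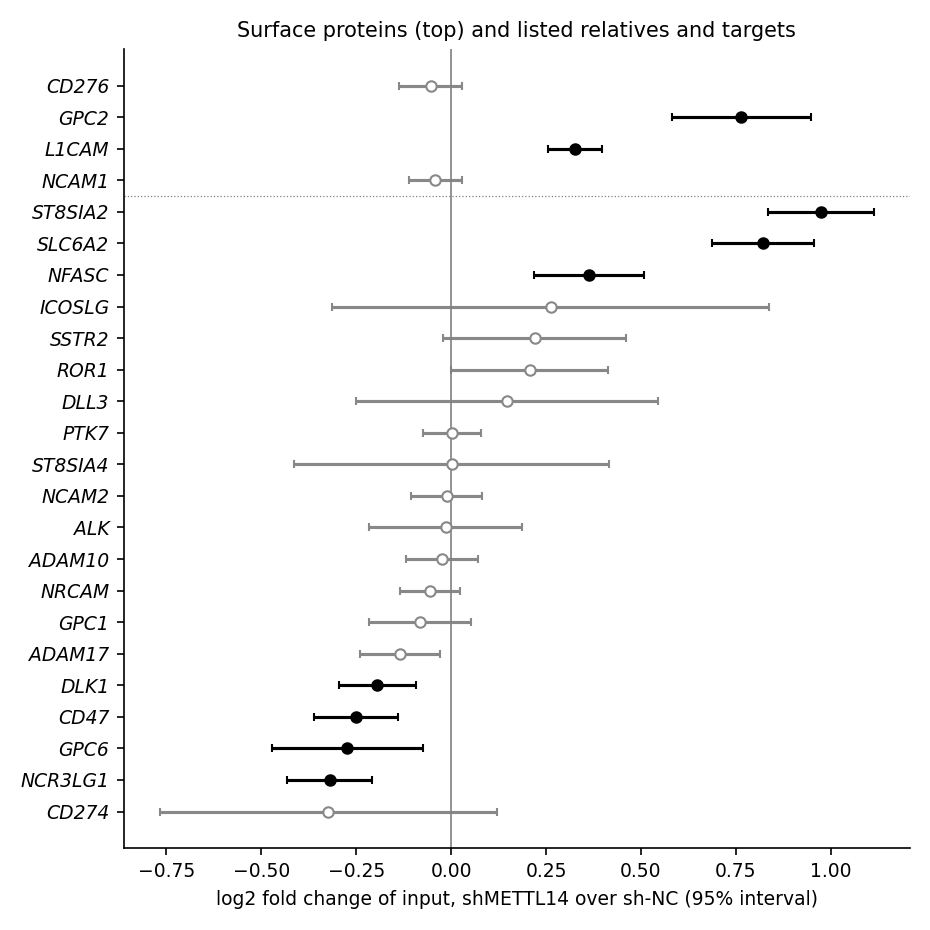
Log2 fold change of input between shMETTL14 and sh-NC, with 95% intervals, for the 4 surface protein genes (above the dotted line) and 20 listed relatives and other targets, filled where the adjusted p-value is under 0.05. GPC2 (0.76) and L1CAM (0.33) lie above 0 and CD276 and NCAM1 span it, and ST8SIA2 (0.97) and SLC6A2 (0.82) have the largest rises of the others. Left out are 4 tested genes with a standard error over 0.3 (GPC3, GPC4, GPC5 and PDCD1LG2).

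The IP libraries were then set against the inputs, to ask how much of each RNA the m6A antibody brought down. IP over input is the ratio of the CPM of both libraries of a culture, each gene counted over all its exons. It is scaled so that the average gene is near 1. A ratio under 1 thus says that a gene had less of the IP than of the input reads, not that it lacks m6A, and m6A lost in equal measure from every gene is taken out by the scaling. Of the 7 genes, 4 were away from 1 in both arms. NCAM1 was enriched, and GPC2, L1CAM and CD276 were depleted.

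NCAM1 had a ratio of 1.112 and 1.263 in sh-NC and of 1.163 and 1.116 in shMETTL14 (log2 IP over input 0.24, standard error 0.0376, adjusted p = 1.63e-07, and 0.19, adjusted p = 2.55e-05). In shMETTL14 this call was lost when libraries were scaled by their size alone (log2 0.07, adjusted p = 0.0751), a scaling that moved the median of all genes to -0.14 in sh-NC and -0.13 in shMETTL14. GPC2 had the lowest mean ratio of the 7 genes in both arms, at 0.6525 and 0.548 in sh-NC and at 0.5816 and 0.5425 in shMETTL14 (log2 -0.74, adjusted p = 3.64e-08, and -0.83, adjusted p = 1.17e-10). L1CAM was at 0.6719 and 0.6335 in sh-NC and at 0.6699 and 0.6742 in shMETTL14 (log2 -0.61, adjusted p = 3.29e-19, and -0.57, adjusted p = 2.6e-18). In sh-NC the cultures of GPC2 and L1CAM overlapped, and these genes were not tested against each other. GPC2 was above only 16.8%, and L1CAM above 21%, of the 22953 genes tested in sh-NC. CD276 was nearer to 1, at 0.877 and 0.8778 in sh-NC and at 0.9085 and 0.9304 in shMETTL14 (adjusted p = 0.000114 and 0.0115). Its call in shMETTL14 was lost without either culture of that arm (adjusted p = 0.229 without culture 1 and 0.101 without culture 2).

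Of the GD2 enzymes, none passed the test in sh-NC and B4GALNT1 alone did in shMETTL14. B4GALNT1 was at 0.959 and 0.9623 in sh-NC (adjusted p = 0.345) and at 0.9281 and 0.8975 in shMETTL14, where it passed the test (log2 -0.13, adjusted p = 0.0198) but not with DESeq2 (adjusted p = 0.0501) or without culture 1 or 2 of that arm (adjusted p = 0.104 and 0.281). With the counts of SLC26A10 taken away, B4GALNT1 was lower in IP in both arms, by a log2 of -0.41 in sh-NC (adjusted p = 1.3e-05) and -0.50 in shMETTL14 (adjusted p = 1.48e-07). SLC26A10 itself had a higher log2 IP over input than B4GALNT1, 0.17 in sh-NC and 0.07 in shMETTL14. Taking its counts away could therefore only lower the ratio of B4GALNT1, and no depletion is read from this setting. Scaling by library size also brought B4GALNT1 past the test in sh-NC (log2 -0.19, adjusted p = 0.00213). ST3GAL5 was at 0.8911 and 1.126 in sh-NC and at 1.272 and 1.068 in shMETTL14, with adjusted p-values of 0.975 and 0.0953. ST8SIA1 had ratios of 1.965 and 0.9117 in sh-NC and of 1.491 and 2.327 in shMETTL14, on the few counts given above, and passed the test in neither arm (adjusted p = 0.57 and 0.214).

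In sh-NC 1 of the 7 genes was thus higher in IP than in input, against 29.1% of all genes, and 3 were lower, against 29.8%. In shMETTL14 1 was higher, against 28.9%, and 4 were lower, against 29.1%. Of the 10 breakdown genes, 7 were lower in IP in sh-NC, with a median log2 of -0.85 against -0.01 for all genes, among them GM2A (-1.11), GALC (-0.67) and NEU1 (-0.41). Of the 10 tested synthesis genes outside the 3 GD2 enzymes, 5 were higher and 3 lower, with ST6GALNAC3 at 0.76, B4GALT5 at 0.24 and UGCG at -0.65 on the log2 scale. ST8SIA2 was enriched, at 1.84 and 1.8 in sh-NC and at 1.928 and 1.813 in shMETTL14. SLC6A2 was depleted, at 0.6666 and 0.5919 in sh-NC and at 0.6482 and 0.6788 in shMETTL14.

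**Figure D4:**
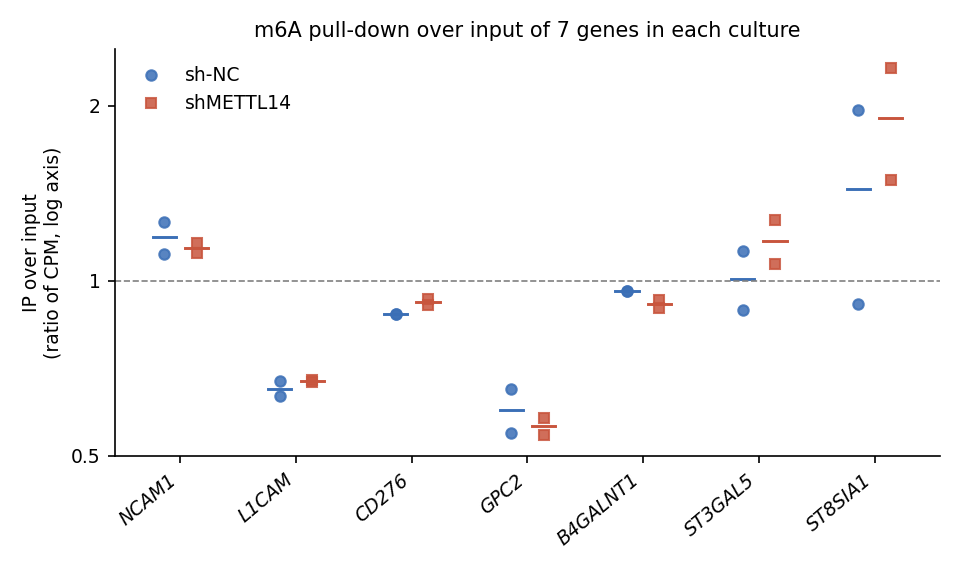
Ratio of IP to input CPM of the 7 genes on a log axis, 1 point for each culture (circles sh-NC, squares shMETTL14), bars at the means and a dashed line at 1. GPC2 and L1CAM lie near 0.6 in both arms, NCAM1 lies above 1 in all 4 cultures, and ST8SIA1 scatters from 0.9117 to 2.327.

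IP over input did not pass the test of a difference between the arms for any of the 7 genes. The interaction of arm and library type had log2 values between -0.09 (GPC2) and 0.35 (ST8SIA1), with adjusted p-values from 0.867 to 0.976 in edgeR's quasi-likelihood test. No gene of the 7 had an unadjusted p-value under 0.05 either, the smallest being 0.166 for ST3GAL5, and DESeq2 called 0 of 7. Of all 22953 genes, 0% were called higher and 0.00436% (1 gene) lower, and at an unadjusted p-value under 0.05 3.03% were higher and 3.31% lower. A loss at 1 site could be diluted in a ratio over all exons of a gene, and single sites were not tested. For that ratio, the intervals bound what could have been missed. They ran from -0.22 to 0.07 for B4GALNT1, from -0.05 to 0.19 for CD276, from -0.07 to 0.15 for L1CAM, from -0.16 to 0.05 for NCAM1, from -0.38 to 0.20 for GPC2, from -0.10 to 0.54 for ST3GAL5 and from -1.25 to 1.96 for ST8SIA1. For the 3 genes whose input rose, the IP rose along with it. B4GALNT1 went from 48.21 and 48.79 to 62.97 and 62.89 CPM in the IPs, GPC2 from 7.101 and 6.867 to 11.72 and 10.55 CPM, and L1CAM from 142.8 and 137.3 to 180.4 and 179.8 CPM. In the IP libraries tested alone, these 3 genes were called higher, with log2 fold changes of 0.38, 0.67 and 0.36.

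None of the 49 listed genes tested passed the test of the change of IP over input after adjustment. At an unadjusted p-value under 0.05 there were 3, named here after their values were seen. SLC35A1 had a lower ratio in shMETTL14, 1.499 and 1.452 in sh-NC against 1.129 and 0.8126 (log2 -0.61, adjusted p = 0.604). DLK1 had a slightly higher ratio, 0.2987 and 0.2816 against 0.3085 and 0.3503 (log2 0.18, adjusted p = 0.772), and PDCD1LG2 (log2 2.43, adjusted p = 0.712) rested on the few counts given above.

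Finally, the genes whose pattern over the 8 libraries was most like that of each of the 7 were sought, by the root mean square difference of log2 CPM after each gene was centred on its own mean, among 10495 or 10496 genes with a mean of at least 10 CPM. This is a description of the libraries, which share their scaling and their cultures, and says nothing of shared function. CD276 had the closest match, SCAMP3 at 0.0123, followed by SRRM2 at 0.0226. NCAM1 was closest to TMED2 (0.0248) and SET (0.032), B4GALNT1 to GSE1 (0.0277) and AC007192.4 (0.031), L1CAM to NDRG4 and CRMP1 (both 0.0404), ST3GAL5 to PAXIP1 (0.0546) and HSBP1 (0.055), and GPC2 to LIMK1 (0.0819) and ARVCF (0.0867). ST8SIA1 had no close match, with ZDHHC11 at 0.36 and ZNF559 at 0.362.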

How the data were processed

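MeRIP-seq was analysed in 8 libraries of SK-N-BE(2) cells, an IP and an input from each of 2 cultures per arm, grouped by the titles in the labels. The authors deposited raw counts per gene. Per the labels, libraries were stranded and carried molecular identifiers. The submitters' processing notes name Trimmomatic 0.36 and the build GRCh38. The aligner, counting tool, strand setting, annotation release and removal of duplicates are not given in the sources used here. Counts may hold repeats of 1 molecule, and reads of overlapping genes cannot be told apart.

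Counts were tested in R 4.3.3 with edgeR 4.0.16 (filterByExpr, TMM factors, glmQLFit, glmQLFTest) and Benjamini-Hochberg adjustment over all genes tested, at a threshold of 0.05. The input comparison used the 4 inputs. For IP over input in each arm, and for its change between them, all 8 libraries entered 1 fit with a mean for each of the 4 groups. Input CPM use the factors of the 4 inputs, IP over input those of the 8 libraries. Log values for alike genes used a prior count of 2. Intervals are at a confidence level of 0.95. With 2 cultures against 2, an exact permutation test cannot give a two-sided p below 0.333, and none was used. Scripts were tested on simulated data.

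The genes named are METTL14, the 7 genes, genes of fixed lists (ganglioside synthesis, sialic acid supply, ganglioside breakdown, relatives of the surface proteins, other targets, cell type markers) that passed the test in the input comparison or the change of IP over input, and the 2 genes most alike each of the 7. Some that did not pass are named for their role, and SLC26A10 and other overlapping genes after their values were seen. 1 gene of these lists enters the counts but is not reported here by name. VSIR was matched by an older symbol, C10orf54. The genes and lists were chosen with earlier results of these data known. The alternatives tried were RLE factors, DESeq2 1.42.0, scaling by library size, no filter, at least 10 counts in every library, a replicate block, other sets of libraries and leaving out each culture. After seeing the data, B4GALNT1 less the SLC26A10 counts and an unadjusted p-value under 0.05 were added. The chi-square per gene between replicates was 2.52 to 4.32, where sampling noise of reads counted once gives about 1. Counting both mates of a pair would raise that value, so that the excess over sampling noise is not known. The protocol takes IP and input of a culture from the same RNA, which pairs them. Across 22953 genes, the correlation of their deviations within a group was 0.004 for sh-NC and 5.7e-05 for shMETTL14. That of same-numbered inputs of the arms was -0.012, and these share a number only. Figures were drawn with matplotlib 3.10.9.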

Additional observations from a re-analysis of the deposited data

How the results depend on the processing

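The rise of B4GALNT1, GPC2 and L1CAM and the fall of UGCG, B4GALT5 and B4GALT6 in the inputs passed the test under every alternative run. Leaving out a culture leaves 1 in its arm, which is then assumed to vary like the other groups. The count of listed genes higher in the inputs, 8, was 5 with DESeq2, 4 without a filter and 2 to 6 with a culture left out (2 without shMETTL14 culture 2, 5 without sh-NC culture 1 or shMETTL14 culture 1). The count lower, 12, was 7 without a filter and 5 to 10 with a culture left out (5 without shMETTL14 culture 2). With the replicate block, 8 were higher and 13 lower, and the block changed no call of the 7 genes in any comparison. In shMETTL14, genes of the 7 higher in IP went from 1 to 0 with library size only, and those lower from 4 to between 2 and 4 with a culture left out (2 without shMETTL14 culture 1 or 2). With the IP libraries alone, which keeps RNA changes in, 3 of the 7 and 6 listed genes were higher and 8 listed genes lower. For the change of IP over input itself, an unadjusted p-value called 2 listed genes higher and 1 lower.

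The sign turned for values that had not passed the test, and for METTL14 in the IP libraries alone (-1.70). In the inputs, leaving out a culture gave ST8SIA1 -0.43 to 0.95 and NCAM1 -0.087 to 0.0026. For IP over input in sh-NC it gave ST8SIA1 -0.12 to 0.97 and ST3GAL5 -0.16 to 0.18, the latter also 0.0037 with DESeq2 and 0.0053 without a filter. For the change of IP over input it gave METTL14 -0.0026 to 0.19, ST8SIA1 -0.20 to 0.88, GPC2 -0.22 to 0.017, L1CAM -0.00038 to 0.067 and NCAM1 -0.17 to 0.034. The IP libraries alone gave B4GALNT1 0.38, ST3GAL5 -0.037 and GPC2 0.67. The cause was not tested, other than that the IP libraries alone leave the RNA change in. Depth limits ST8SIA1 and PDCD1LG2.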
